A study of Mus musculus with 12 samples.

Results

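Calcifediol was added to olanzapine in primary mouse hepatocytes, and the hepatocyte library with olanzapine and calcifediol was set against the library with olanzapine alone. Genes entered the comparison when at least 1 of the 4 hepatocyte libraries held them at a TPM of 1 or more, where TPM is the deposited FPKM rescaled to the same total in each library. This rule kept 10963 of the 17742 genes in the hepatocyte table. At the edge of the rule, Epm2a was kept with a highest TPM of 1.01 and Map9 was left out with 0.996. The study treated hepatocytes, adipocytes and the C2C12 mouse muscle cell line alike, which gave 12 libraries in all, and asked how vitamin D metabolites act on genes of cholesterol metabolism under olanzapine, an antipsychotic drug that raises blood lipids.

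The 4 hepatocyte groups were olanzapine with calcifediol (10 μM for 24 h before and 12 h together with 1 μM olanzapine), olanzapine with calcitriol (0.1 μM on the same schedule), olanzapine alone (1 μM for 12 h after 24 h in vehicle), and vehicle (DMSO for 36 h). They are called here the calcifediol, calcitriol, olanzapine and vehicle libraries. The doses of the 2 metabolites differed, so their values stand side by side and were not compared. The cells came from livers of male C57BL6/J mice aged 6 to 8 weeks, were purified on Percoll and kept in serum-free medium with 1 μM dexamethasone, insulin, transferrin and selenium, which all 4 groups shared, the vehicle group included. Each group was 1 library of 1 culture, and how many livers contributed to a culture is not given in the sources used here, so no difference below has a replicate check. The Audic-Claverie test used here, with Benjamini-Hochberg adjustment over the 10963 genes, compares the reads of 2 libraries and not 2 conditions, and the intervals given with log2 ratios are exact 95% intervals (Clopper-Pearson) that cover counting error alone. A gene was called when the fold change (FC) was at least 2 and the false discovery rate (FDR) at most 0.05.

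Calcifediol, or 25-hydroxyvitamin D3, is made from vitamin D3 in the liver by 25-hydroxylases such as Cyp2r1 and Cyp27a1, circulates bound to the vitamin D binding protein Gc, and is converted in the kidney by Cyp27b1 into calcitriol. Calcitriol binds the vitamin D receptor Vdr, which pairs with a retinoid X receptor such as Rxra on DNA and in most responsive cells induces Cyp24a1, the enzyme that degrades both metabolites. Hepatocytes are known for very low Vdr, whereas the liver's other roles in bile acid synthesis, amino acid breakdown, drug metabolism and acute-phase protein output are carried by genes that hepatocytes transcribe at high levels.

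The receptor and its leading target were near absent in these hepatocytes. Vdr (chromosome 15, 97854427 to 97908296, GRCm38.p6) had 2 counts in the calcifediol library, 1 in the calcitriol library, 2 in the olanzapine library and 1 in the vehicle library, and did not reach the TPM of 1. Cyp24a1 (chromosome 2, 170482957 to 170497145) had 4 counts in the calcifediol library, 4 in the calcitriol library and 0 in the olanzapine and vehicle libraries. With the olanzapine count of 0 set to its limit of 3 counts, calcifediol over olanzapine was 1.27-fold. The exact interval of the log2 ratio ran from −0.66 with no upper limit, so the difference lay within counting error. For scale, the same addition of calcifediol gave Cyp24a1 6193 counts against 0 in C2C12 cells and 661 against 0 in adipocytes, and Vdr itself had 8411 counts against 1939 in C2C12 cells (log2 ratio 2.15, 2.08 to 2.22). Both transcripts were thus detectable in the same series where they were present, and in hepatocytes they stayed at a depth of a few reads.

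Of the partner and metabolizing genes none was called, and most were well covered. Rxra had 4427 counts in the calcifediol library, 5645 in the calcitriol library, 5299 in the olanzapine library and 5038 in the vehicle library, a log2 ratio of calcifediol over olanzapine of −0.33 (−0.38 to −0.27). Cyp2r1 had 166, 171, 176 and 169 counts in the calcifediol, calcitriol, olanzapine and vehicle libraries (log2 ratio −0.15, −0.46 to 0.16), and Cyp27a1 had 3814, 3823, 3727 and 3731 in the same order (−0.03, −0.10 to 0.03), so the levels of both 25-hydroxylases lay within counting error. Cyp27b1 had 0 counts in the calcifediol library against 2 in the olanzapine library, both within the limit of 3 counts, and was not tested. Gc had 131217 counts in the calcifediol library and 140498 in the olanzapine library (−0.16, −0.18 to −0.15). Among 14 tested genes known from other tissues as Vdr targets or calcium transporters, 0 were called and the median log2 ratio was 0.04. The calcium-binding protein S100g, a Vdr target in intestine, lay highest in that list with 26 counts in the calcifediol library, 22 with calcitriol, 13 with olanzapine and 10 with vehicle (0.91, −0.08 to 2.02). Insig2, which holds back sterol synthesis, had 2759 counts against 2532 (0.06, −0.02 to 0.14), and the tight-junction gene Cldn2 had 734 against 529 (0.41, 0.24 to 0.57).

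Across all genes the calcifediol and olanzapine libraries were close. The log2 ratios had a median of −0.01 and a standard deviation of 0.28 over the 10963 genes. Of these, 62 were called, 0.566% of the genes tested, with 21 higher (0.192%) and 41 lower (0.374%) in the calcifediol library. Past 2-fold whatever the FDR lay 116 genes (1.06%), of which 54 were not called, and 3841 genes had an unadjusted p under 0.05. The called genes were mostly weakly expressed: 26 of the 62 had fewer than 50 counts in both libraries, and 13 reached a TPM of 5 in one of them. Rescaling to FPKM totals or to Rplp0 moved the split from 21 higher and 41 lower to 16 higher and 53 lower, or to 15 higher and 50 lower. At an FC of at least 1.5, 233 genes (2.13%) were called, 77 higher (0.702%) and 156 lower (1.42%).

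**Figure D1:**
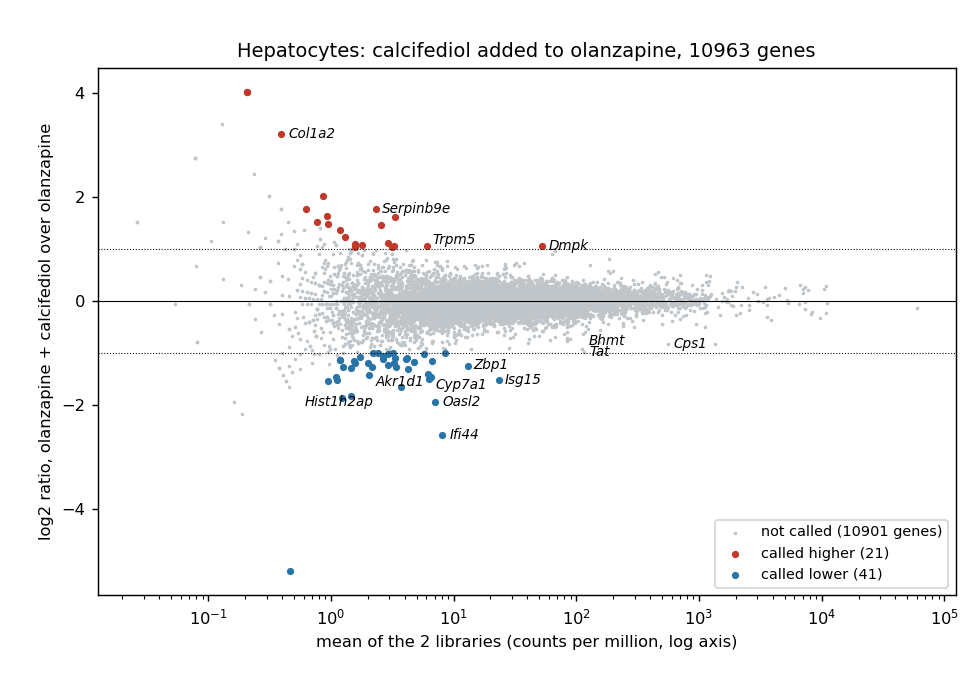
Log2 ratio of the calcifediol library over the olanzapine library against the mean level of the 2 libraries in CPM, counts scaled to library totals (log axis), with each point 1 of 10963 genes and dotted lines at 2-fold. The 41 genes called lower and 21 called higher lie mostly at the left, at low levels, with Isg15, Zbp1 and Dmpk among the few to the right, while abundant genes such as Cps1 and Bhmt lie below 0 and above the dotted line.

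The vehicle library shows where the called genes lay without either drug. Of the 41 genes called lower, the olanzapine library held the highest level of the 4 in 37, against 25.6% of all genes tested, and the calcifediol library the lowest in 24, against 30.8% of all genes tested. The calcifediol library was below the vehicle library for 37 of the 41, against 53.9% of all genes, and past 2-fold below it for 9. Of the 21 genes called higher, the calcifediol library was the highest of the 4 for 18 (25.7% of all genes), the olanzapine library the lowest for 10 (24.4%), the calcifediol library was above vehicle for 20 (46.1%), and 9 were past 2-fold above vehicle as well. A choice of genes by the ratio of these 2 libraries already places the olanzapine library high and the calcifediol library low among the lower genes, so these counts are a description. With vehicle in place of olanzapine as the reference, 65 genes were called, 30 higher and 35 lower, of which 15 were among the 62.

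Of all the gene lists, that of the interferon response held the most genes called lower. Interferons, made by cells that sense viral or misplaced nucleic acid, act through transcription factors such as Stat2 to switch on antiviral genes, and many of these promoters carry repeats of the letters GAAA bound by interferon regulatory factors. Of 27 tested interferon-stimulated genes, 0 were called higher and 5 lower (0.374% of all genes were lower), all 27 had log2 ratios below 0, and the median was −0.63 beside −0.01 over all genes. At an FC of 1.5, 14 of the 27 were lower, where 1.42% of all genes were. The 5 were Ifi44, Oasl2, Isg15, Gbp3 and Zbp1.

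The 100 bases just before the transcription start of 6 genes called lower are shown, 4 of the interferon list (Ifi44, Oasl2, Isg15 and Gbp3) and 2 with antiviral roles from outside it (Trim30a and Oas3), because a promoter element of interferon-responsive genes was searched for after the expression values were seen. They are RefSeq promoter sequences on GRCm38.p6, written 5′ to 3′ on the gene's strand in lower case, with each match to GAAANNGAAA or its reverse complement TTTCNNTTTC in capitals, where overlapping matches run together. Gbp3 and Trim30a had 2 promoter windows each, and the one with the most matches was taken. Oas1g, Ddx60 and Trim5, named below, are not shown.
Isg15 (chr4:156200819-156200918, minus strand): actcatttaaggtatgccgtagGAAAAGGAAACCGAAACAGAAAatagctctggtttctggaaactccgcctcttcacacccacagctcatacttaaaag
Gbp3 (chr3:142559944-142560043, plus strand): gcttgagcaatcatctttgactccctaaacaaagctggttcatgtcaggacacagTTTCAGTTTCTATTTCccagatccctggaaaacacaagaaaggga
Trim30a (chr7:104465194-104465293, minus strand): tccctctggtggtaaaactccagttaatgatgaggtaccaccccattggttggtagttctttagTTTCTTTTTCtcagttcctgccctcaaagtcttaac
Oas3 (chr5:120777660-120777759, minus strand): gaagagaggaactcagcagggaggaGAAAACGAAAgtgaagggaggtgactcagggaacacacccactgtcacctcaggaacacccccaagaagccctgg
Ifi44 (chr3:151749911-151750010, minus strand): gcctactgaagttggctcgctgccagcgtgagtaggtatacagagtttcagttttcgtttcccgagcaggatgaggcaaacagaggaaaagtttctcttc
Oasl2 (chr5:114896834-114896933, plus strand): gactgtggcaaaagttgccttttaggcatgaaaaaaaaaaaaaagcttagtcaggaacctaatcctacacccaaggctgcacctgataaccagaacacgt

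Isg15 held 3 overlapping matches that started 78 to 66 bases before its start site, Gbp3 held 2 at 45 and 39 bases, Trim30a held 1 at 36 bases and Oas3 held 1 at 75 bases, while the windows of Ifi44 and Oasl2 held none with exactly these letters. In the 250 bases before the start site, a match was found for 11 of the 21 tested interferon-stimulated genes with a window in the table (52.4%), for 7 of 30 genes called lower (23.3%), for 1 of 18 called higher (5.56%) and for 266 of 8868 genes tested (3.0%). A gene was counted when any of its windows held a match. Over all 32851 promoter windows, each counted singly, the share was 2.98%. These are matches of letters, not measured binding sites.

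Ifi44 (chromosome 3, 151730922 to 151749910), an interferon-induced GTPase-like protein, had 44 counts in the calcifediol library, 60 in the calcitriol library, 253 in the olanzapine library and 104 in the vehicle library. It had the lowest log2 ratio of the named genes, −2.58 (−3.09 to −2.12), and was the single gene called when edgeR's exact test was run with an assumed biological coefficient of variation of 0.2. Oasl2 (chromosome 5, 114896926 to 114912245), of the oligoadenylate synthetase family that senses double-stranded RNA, had 55 counts with calcifediol, 48 with calcitriol, 205 with olanzapine and 123 with vehicle (−1.95, −2.42 to −1.53). In both genes the olanzapine library stood highest and both metabolite libraries stood below vehicle.

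Isg15 (chromosome 4, 156199424 to 156200818), a ubiquitin-like protein joined to other proteins in antiviral defence, had 230 counts in the calcifediol library, 197 with calcitriol, 633 with olanzapine and 382 with vehicle (−1.52, −1.75 to −1.31). Gbp3 (chromosome 3, 142560016 to 142573213), a guanylate-binding GTPase, had 66, 69, 175 and 115 counts in the calcifediol, calcitriol, olanzapine and vehicle libraries (−1.47, −1.90 to −1.06). Zbp1 (chromosome 2, 173206612 to 173218959), a sensor of left-handed nucleic acid, had 147 counts with calcifediol, 161 with calcitriol, 336 with olanzapine and 214 with vehicle (−1.26, −1.55 to −0.97). The same order, olanzapine above vehicle and vehicle above both metabolites, held for each of these 3 genes. Ifi44, Oasl2, Isg15, Gbp3 and Zbp1 were also the 5 members of the list called with an assumed coefficient of variation of 0.1. With vehicle as the reference, Ifi44 (−1.26) and Oasl2 (−1.18) stayed called, whereas Isg15 (−0.76), Gbp3 (−0.83) and Zbp1 (−0.57) were not. Zbp1 also lost its call with olanzapine and vehicle summed (−0.95).

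Further members with more reads had smaller ratios. Dhx58, a regulator of RNA sensing, had 376 counts with calcifediol, 323 with calcitriol, 673 with olanzapine and 496 with vehicle (−0.90, −1.09 to −0.72). The transcription factor Irf7 had 1185, 1360, 1931 and 1633 counts in the calcifediol, calcitriol, olanzapine and vehicle libraries (−0.77, −0.88 to −0.67). At the other end of the list, Stat2 had 2070 counts with calcifediol and 2059 with olanzapine (−0.06, −0.15 to 0.03), and the chemokine Cxcl10 had 101 in each (−0.07, −0.48 to 0.35), so these did not differ beyond counting error. Dhx58, Irf7, Stat2 and Cxcl10 were chosen after their values were seen.

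The next 5 genes, known for antiviral or interferon-induced roles, are not on the list and were picked from the 41 genes called lower, so no share of such genes is given. Trim30a, a tripartite-motif protein, had 108 counts with calcifediol, 88 with calcitriol, 207 with olanzapine and 179 with vehicle (−1.001, −1.35 to −0.66). Its call was lost under TMM factors (−0.989), size factors (−0.986), a pseudocount of 5 (−0.97) and length adjustment (−0.95). The oligoadenylate synthetase Oas1g had 16 counts with calcifediol, 10 with calcitriol, 38 with olanzapine and 21 with vehicle (−1.29, −2.26 to −0.44). It passed the filter through the olanzapine library alone (TPM 1.76). Oas3, of the same family, had 51, 42, 105 and 76 counts in that order (−1.10, −1.62 to −0.61). In the same order Ddx60 had 40, 39, 83 and 56 counts (−1.11, −1.70 to −0.56) and Trim5 had 31, 29, 60 and 40 (−1.01, −1.69 to −0.37). Trim5 also lost its call under TMM factors (−0.995), size factors (−0.992), a pseudocount of 5 (−0.92) and length adjustment (−0.988). With vehicle as the reference, Trim30a (−0.76), Oas1g (−0.41), Oas3 (−0.60), Ddx60 (−0.51) and Trim5 (−0.39) were not called. With olanzapine and vehicle summed they were not called either. Oas1g, Oas3, Ddx60 and Trim5 were chosen after their values were seen, and reads of the Oas1, Trim5 and Trim30 families, which hold near-identical copies in the mouse, may be split between copies.

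Against vehicle the interferon list stood nearer to 0. The olanzapine library was the highest of the 4 in 26 of the 27 genes, where 25.6% of all genes were, and the list's median was 0.37 for olanzapine over vehicle. The calcifediol library was below vehicle for 21 of the 27, with a median of −0.25, and was the lowest of the 4 for 9. The calcitriol library, which shares the olanzapine library as its reference, had a list median of −0.69. With 1 library each, a high olanzapine library and 2 low metabolite libraries cannot be told apart. The other cell types, in tables of their own, gave list medians of 0.19 in adipocytes (28 tested, 0 called) and −0.13 in C2C12 cells (19 tested, 1 higher and 3 lower, where 5.28% and 6.29% of all genes were). Isg15 had 284 counts with calcifediol and 164 with olanzapine in adipocytes (0.77, 0.49 to 1.05) and 42 against 33 in C2C12 cells (0.38, −0.31 to 1.09), and Oasl2, which was lower in hepatocytes, was lower in C2C12 cells too with 27 against 127 (−2.18, −2.86 to −1.59).

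**Figure D2:**
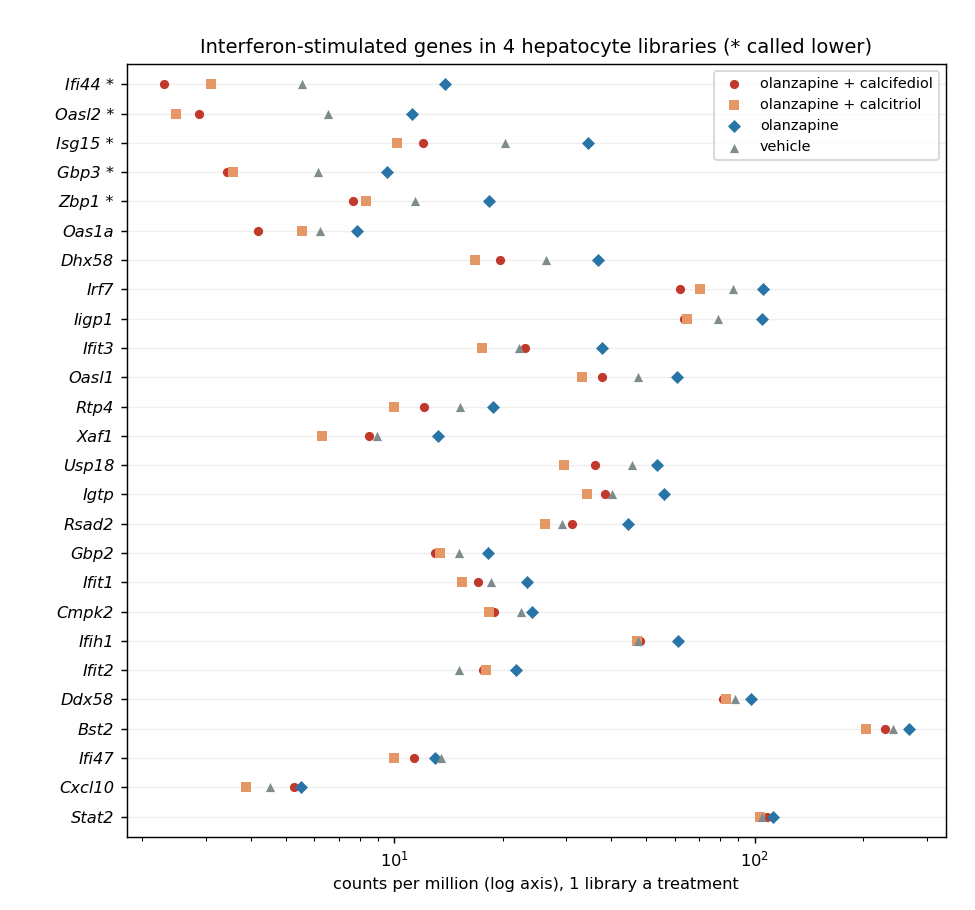
CPM (log axis) of 26 tested interferon-stimulated genes in the calcifediol, calcitriol, olanzapine and vehicle libraries, 1 point per library, with the genes ordered by their log2 ratio of calcifediol over olanzapine and the 5 called genes starred. The olanzapine point lies rightmost in 25 of the 26 rows, and the gap to the calcifediol point narrows from Ifi44 at the top to Stat2 at the bottom.

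Bile acid synthesis and uptake held the other group of called members. Bile acids are made from cholesterol in hepatocytes by a chain of enzymes that starts with Cyp7a1, and transporters of the sinusoidal and canalicular membranes return and export them. Of 22 tested genes of this list, 0 were called higher and 4 lower, beside 0.374% of all genes lower, and the median log2 ratio was −0.21, or −0.37 as a mean.

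Cyp7a1 (chromosome 4, 6265612 to 6275632), the rate-limiting enzyme of the classical pathway, had 63 counts in the calcifediol library, 116 in the calcitriol library, 171 in the olanzapine library and 87 in the vehicle library (−1.50, −1.95 to −1.08). Akr1d1 (chromosome 6, 37529978 to 37574921), the reductase that shapes the steroid ring of bile acids, had 34, 42, 104 and 63 counts in the calcifediol, calcitriol, olanzapine and vehicle libraries (−1.66, −2.28 to −1.11). Cyp8b1 (chromosome 9, 121914356 to 121916305), which sets the share of cholic acid, had 24 counts with calcifediol, 12 with calcitriol, 56 with olanzapine and 37 with vehicle (−1.27, −2.04 to −0.57). In all 3 the olanzapine library was the highest, and against vehicle the log2 ratios of the calcifediol library were −0.49 for Cyp7a1, −0.91 for Akr1d1 and −0.64 for Cyp8b1, none of them called.

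Slco1b2, an organic anion uptake transporter of the sinusoidal membrane, had 73 counts with calcifediol, 81 with calcitriol, 142 with olanzapine and 119 with vehicle (−1.02, −1.45 to −0.61). It lost its call with a pseudocount of 5 (−0.98) and under length adjustment (−0.97). Abcc4, a sinusoidal efflux pump, lay on the other side of 0 and had 399, 271, 240 and 286 counts in the calcifediol, calcitriol, olanzapine and vehicle libraries (0.67, 0.43 to 0.90), past an FC of 1.5 though not called at 2. The bile acid receptor Nr1h4 had 1646 counts with calcifediol and 1856 with olanzapine (−0.24, −0.34 to −0.14), and the sodium-dependent uptake carrier Slc10a1 had 157 against 237 (−0.66, −0.96 to −0.36), both chosen after their values were seen. Against vehicle the list had a median of −0.05, and olanzapine over vehicle one of 0.21.

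**Figure D3:**
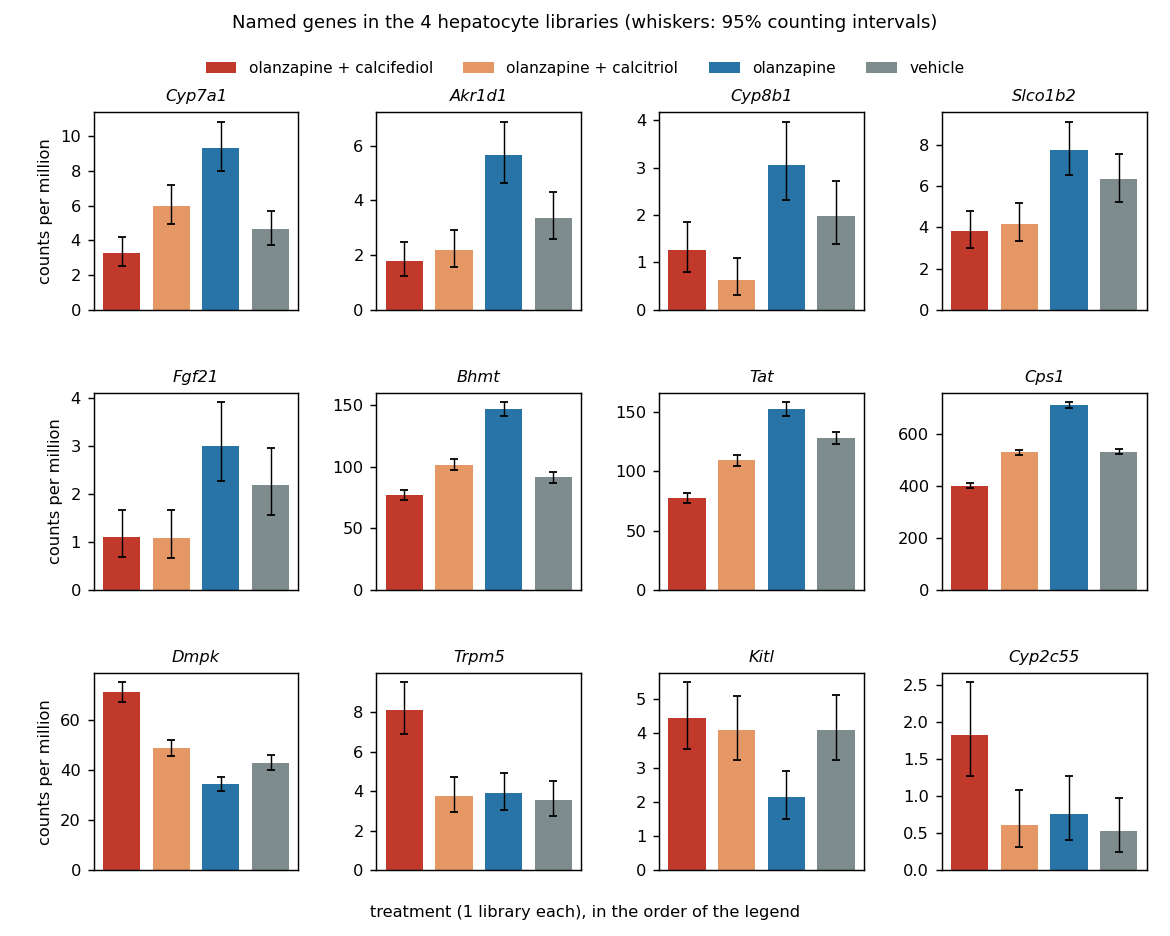
CPM of 12 genes in the 4 hepatocyte libraries, with bars in the order calcifediol, calcitriol, olanzapine and vehicle, axes from 0 and whiskers for exact 95% intervals of the count. Olanzapine is the highest bar for Cyp7a1, Akr1d1, Cyp8b1, Slco1b2, Fgf21, Bhmt, Tat and Cps1, calcifediol is the highest for Dmpk, Trpm5 and Cyp2c55, and for Kitl the olanzapine bar is low while the other 3 lie together.

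Several abundant genes of amino acid metabolism were lower by less than 2-fold. Among 28 tested genes of the urea cycle and amino acid breakdown, 0 were called, 5 were lower at an FC of 1.5 (1.42% of all genes were), and the median was −0.09. Tat, the tyrosine aminotransferase that glucocorticoids induce, had 1484 counts with calcifediol, 2109 with calcitriol, 2791 with olanzapine and 2399 with vehicle (−0.98, −1.07 to −0.89). Bhmt, which methylates homocysteine with betaine, had 1480, 1963, 2691 and 1719 counts in the calcifediol, calcitriol, olanzapine and vehicle libraries (−0.93, −1.02 to −0.84). Cps1, the mitochondrial entry enzyme of the urea cycle, had 7709 counts with calcifediol, 10274 with calcitriol, 13050 with olanzapine and 10026 with vehicle (−0.83, −0.87 to −0.78). The calcifediol library was the lowest and the olanzapine library the highest of the 4 for these 3 genes.

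Among other members of that list, Mat1a, which makes S-adenosylmethionine, had 1714 counts against 2555 (−0.64, −0.73 to −0.55) in the calcifediol and olanzapine libraries, whereas the urea cycle enzyme Ass1 had 15232 against 13930 (0.06, 0.03 to 0.10) and Otc had 689 against 623 (0.08, −0.08 to 0.24), the last 2 chosen after their values were seen. Of 11 tested genes of gluconeogenesis and of insulin repression, 0 were called, 9 lay below 0 and the median was −0.24. The glucose transporter Slc2a2 had 1924 counts with calcifediol and 2693 with olanzapine (−0.55), and Igfbp1 had 1381 against 1781 (−0.43). Glucocorticoid receptor targets, 16 tested with dexamethasone present in every culture, had 0 calls and a median of −0.12, with Tdo2 at 1806 counts against 2601 (−0.59) and Mt1 at 26131 against 19189 (0.38).

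Fasting and fat-burning genes held 1 call, where 0.374% of all genes were called lower. Fgf21 (chromosome 7, 45613890 to 45615490), a hormone the liver releases under PPAR alpha and stress signals, was called lower with 21 counts in the calcifediol library, 21 with calcitriol, 55 with olanzapine and 41 with vehicle (−1.43, −2.25 to −0.71). Over 29 tested PPAR alpha targets the median was 0.02, with 15 above and 14 below 0, so Fgf21 lay apart from the middle of the list. The same Fgf21 was the called member of 23 tested genes of the ATF4 stress response, whose median was 0.00.

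Genes of lipid synthesis and transport did not pass the thresholds. Of 20 tested cholesterol synthesis enzymes 0 were called, their log2 ratios lay between −0.17 and 0.19, and their median was −0.01, equal to that of all genes to 2 decimals. Acat2 lay highest with 1821 counts with calcifediol against 1524 with olanzapine (0.19), and Dhcr7, of the last steps, lowest with 2714 against 2911 (−0.17). Of 19 tested fatty acid synthesis genes 0 were called (median −0.06), and the desaturase Scd2 had 1400 counts against 1024 (0.39). Apolipoproteins and their assembly factors (20 tested, 0 called, median 0.00) ranged from the hepatic lipase Lipc with 619 counts against 861 (−0.54) to the lipase activator Apoc2 with 4584 against 2960 (0.57). LXR targets had 0 calls among 7 tested (median −0.10), with the sterol exporter Abca1 at 1714 counts against 2135 (−0.38).

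Few genes rose past the thresholds at a level of TPM 5 or more. Dmpk (chromosome 7, 19083646 to 19093821), the myotonic dystrophy protein kinase, was the 1 named gene that did, with 1364 counts in the calcifediol library, 942 in the calcitriol library, 629 in the olanzapine library and 805 in the vehicle library, which is a TPM of 42.7, 30.3, 21.4 and 26.1 in that order. Its log2 ratio was 1.05 (0.91 to 1.19), which fell just under the threshold when scaled to FPKM totals (0.998) or to Rplp0 (0.99). Against vehicle it was 0.73. In the same contrast Dmpk had 4256 counts against 3133 in adipocytes (0.42, 0.35 to 0.48) and 19307 against 10700 in C2C12 cells (0.89, 0.85 to 0.92), higher in each cell type beyond counting error and called in hepatocytes.

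The other higher genes named here were chosen after their values were seen. Trpm5 (chromosome 7, 143071529 to 143094642), a calcium-activated cation channel known from taste cells, had 156 counts with calcifediol, 73 with calcitriol, 72 with olanzapine and 67 with vehicle (1.04, 0.64 to 1.47), and lost its call under FPKM totals (0.99), Rplp0 (0.98) or a pseudocount of 5 (0.998). Its calcitriol, olanzapine and vehicle counts lay together and the calcifediol count stood alone above them. Kitl, the ligand of the Kit receptor, had 85, 79, 39 and 77 counts in the calcifediol, calcitriol, olanzapine and vehicle libraries (1.05, 0.50 to 1.64), so here the olanzapine library stood alone below the rest, and against vehicle the ratio was 0.11. Kitl lost its call under FPKM totals (0.99), Rplp0 (0.98) or a pseudocount of 5 (0.97). In C2C12 cells Kitl was higher with calcifediol as well, with 1364 counts against 238 (2.55, 2.35 to 2.76), and in adipocytes it had 291 against 290.

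A cluster of serine protease inhibitor genes on chromosome 13, picked after the calls were seen, held 4 of the 21 higher calls. Over all genes tested, 0.192% were called higher, a share with another denominator, so these values were not compared. Serpinb9b (33027414 to 33040588) had 73 counts with calcifediol, 59 with calcitriol, 25 with olanzapine and 50 with vehicle (1.46), and Serpinb9e (33249608 to 33260850) had 69, 11, 19 and 32 in the calcifediol, calcitriol, olanzapine and vehicle libraries (1.77, 1.05 to 2.61). Serpinb9d, which passed the filter through the calcifediol library alone (TPM 1.16), had 27 counts with calcifediol against 9 with olanzapine (1.47). Serpinb9c had 41 against 18 (1.10, or 0.93 and no call with a pseudocount of 5). Their neighbours were not called: Serpinb9, an inhibitor of granzyme B, had 868 against 654 (0.34, 0.19 to 0.49), Serpinb9f had 24 against 16 (0.50, −0.45 to 1.53) and Serpinb9g had 28 against 24 (0.15, −0.68 to 1.01). Serpinb6b had 527 against 364 (0.47, 0.27 to 0.66) and Serpinb6a had 4311 against 2834 (0.54, 0.47 to 0.61), higher beyond counting error though not called. Serpinb6c and Serpinb6d had 0 counts in every hepatocyte library and were not tested. The Serpinb6 genes were chosen after their values were seen. The Serpinb9 genes are near-identical copies, so reads may be divided among them by the quantification and each value is uncertain.

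Targets of the drug-sensing receptors PXR and CAR and genes of the response to oxidants lay mostly above 0, with few calls. Of all 10963 genes tested, 5183 lay above 0. Cyp2c55, a cytochrome P450 that the xenobiotic receptors PXR and CAR induce in mouse liver, was called higher (1.23, 0.33 to 2.26). It had 35 counts in the calcifediol library, 12 with calcitriol, 14 with olanzapine and 10 with vehicle. It was 1 of 17 tested PXR and CAR targets, where 0.192% of all genes were higher. Its TPM was 1.53, 0.56, 0.66 and 0.46 in that order. It thus passed the filter only through the library where it was high. Cyp3a11, a main PXR target, had 9290, 6603, 7098 and 6673 counts in the calcifediol, calcitriol, olanzapine and vehicle libraries (0.32, 0.28 to 0.37), and Cyp2b10, a main CAR target, had 10066, 13107, 12528 and 14182 (−0.38, −0.42 to −0.34). The list's median was 0.13, with 13 above and 4 below 0. Cyp3a59, a paralog within the Cyp3a family and hence uncertain, had 82 counts with calcifediol against 38 with olanzapine (1.03, 0.47 to 1.64), and it was called higher but lost the call under FPKM totals (0.95), Rplp0 (0.97) or a pseudocount of 5 (0.95). Cyp3a11 and Cyp3a59 were chosen after their values were seen. Cyp1a1, the leading target of the aryl hydrocarbon receptor, had 70 counts with calcifediol, 77 with calcitriol, 35 with olanzapine and 38 with vehicle (0.92), not called.

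NRF2, the transcription factor that answers oxidants, has targets in glutathione synthesis and NADPH supply. All 20 tested targets had log2 ratios of 0.00 or above, the median was 0.28 beside −0.01 over all genes, and 0 were called. The calcifediol library was the highest of the 4 in 18 of the 20, where 25.7% of all genes were. Hmox1, heme oxygenase, had 4206 counts with calcifediol, 3242 with calcitriol, 2689 with olanzapine and 3730 with vehicle (0.58, 0.51 to 0.65). Srxn1, sulfiredoxin, had 13507, 10837, 9528 and 10355 counts in the calcifediol, calcitriol, olanzapine and vehicle libraries (0.44, 0.40 to 0.48), and the glutathione transferase Gstm3 had 24365, 18022, 18192 and 17551 (0.36, 0.33 to 0.38). Slc7a11, the cystine importer, had 1203 counts with calcifediol against 810 with olanzapine (0.50, 0.38 to 0.64), whereas Gclm, a subunit of glutamate-cysteine ligase, had 3767 against 3456 (0.06, −0.01 to 0.13) and lay within counting error. Srxn1 and Gclm were chosen after their values were seen. The list's median was 0.24 against vehicle and 0.22 after adjustment for transcript length, and in the other cell types it was 0.10 in adipocytes and 0.52 in C2C12 cells (6 of 19 tested called higher, where 5.28% of all genes were).

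Cell cycle genes lay below 0 in most cases. Plk1, a mitotic kinase, was called lower with 37 counts in the calcifediol library, 78 with calcitriol, 72 with olanzapine and 70 with vehicle (−1.02, −1.64 to −0.43), and lost its call with a pseudocount of 5 (−0.94). Mki67, a marker of dividing cells, had 126, 202, 206 and 185 counts in the calcifediol, calcitriol, olanzapine and vehicle libraries (−0.77, −1.11 to −0.45), and Ccna2, cyclin A, had 67, 117, 112 and 101 (−0.80, −1.27 to −0.36). In these 3 genes the calcifediol library stood alone below the other 3. Of 25 tested members 1 was called lower, where 0.374% of all genes were, and 0 higher, 17 lay below 0, the calcifediol library was the lowest of the 4 in 17 where 30.8% of all genes were, and the median was −0.24, or −0.38 against vehicle. Thymidine kinase Tk1, off the list and chosen after its value was seen, had 28 counts with calcifediol against 54 with olanzapine (−1.001, −1.73 to −0.33). Its call was lost under TMM factors (−0.989), size factors (−0.986) and a pseudocount of 5 (−0.90). In C2C12 cells, 24 of 27 tested members were called lower with calcifediol, where 6.29% of all genes were.

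Genes of matrix turnover and contraction were mixed. The smooth-muscle light chain Myl9 had 14, 12, 30 and 22 counts in the calcifediol, calcitriol, olanzapine and vehicle libraries (−1.14, −2.19 to −0.21), 1 of 29 tested cytoskeletal and YAP or SRF targets where 0.374% of all genes were called lower, and lost its call with a pseudocount of 5 (−0.95). In that list, 21 of 29 genes lay above 0, where 5183 of all 10963 genes did. Among them were S100a6 with 3041 counts against 1815 (0.68) and Cyr61 with 5106 against 3598 (0.44). The list's median of 0.13 moved to 0.063 under FPKM totals, 0.063 under Rplp0 and 0.084 after length adjustment. Cnn1, a calponin chosen after its value was seen, had 10 counts with calcifediol against 36 with olanzapine (−1.86, −3.09 to −0.87). Col1a2, a collagen of fibroblasts, was called higher (3.21, 1.03 to 9.14), a ratio that rests on a single read in the olanzapine library. It had 14 counts with calcifediol, over 100 with calcitriol, 1 with olanzapine and 8 with vehicle. Its TPM was 0.22 with calcifediol and 0.016 with olanzapine, so it passed the filter through the calcitriol library alone (2.08). Against vehicle its log2 ratio was 0.74, not called.

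Some called genes stood outside these groups. Pbld1 had 79 counts with calcifediol, 78 with calcitriol, 169 with olanzapine and 97 with vehicle (−1.16, −1.57 to −0.77), and Mthfs, an enzyme of folate metabolism, had 41, 49, 79 and 83 (−1.004, −1.59 to −0.45). The call of Mthfs was lost under TMM factors (−0.992), size factors (−0.988) and a pseudocount of 5 (−0.93). Hist1h2ap, a histone gene with many near-identical copies and hence uncertain, had 12 counts with calcifediol, 79 with calcitriol, 42 with olanzapine and 93 with vehicle (−1.83, −2.93 to −0.92). The clock repressor Ciart had 14, 16, 33 and 15 counts in the calcifediol, calcitriol, olanzapine and vehicle libraries (−1.27, −2.32 to −0.36). It was the called member of 20 tested clock genes (median −0.17). Ciart passed the filter through the olanzapine library alone (TPM 2.13). H2-Ab1, a class II antigen-presenting chain, had 11 counts with calcifediol against 31 with olanzapine (−1.52, −2.70 to −0.53). It was the called member of 13 tested genes of antigen presentation. Over all genes, 0.374% were called lower. Acute-phase proteins (26 tested, 0 called) had a median of −0.23 (−0.12 against vehicle), with Serpina3n at 17731 counts against 24122 (−0.51), and complement and coagulation factors (33 tested, 0 called) one of −0.10 with 28 below 0 (−0.0024 against vehicle). Hamp, the iron hormone hepcidin, had 8 counts with calcifediol against 1 with olanzapine, too few for a call.

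**Figure D4:**
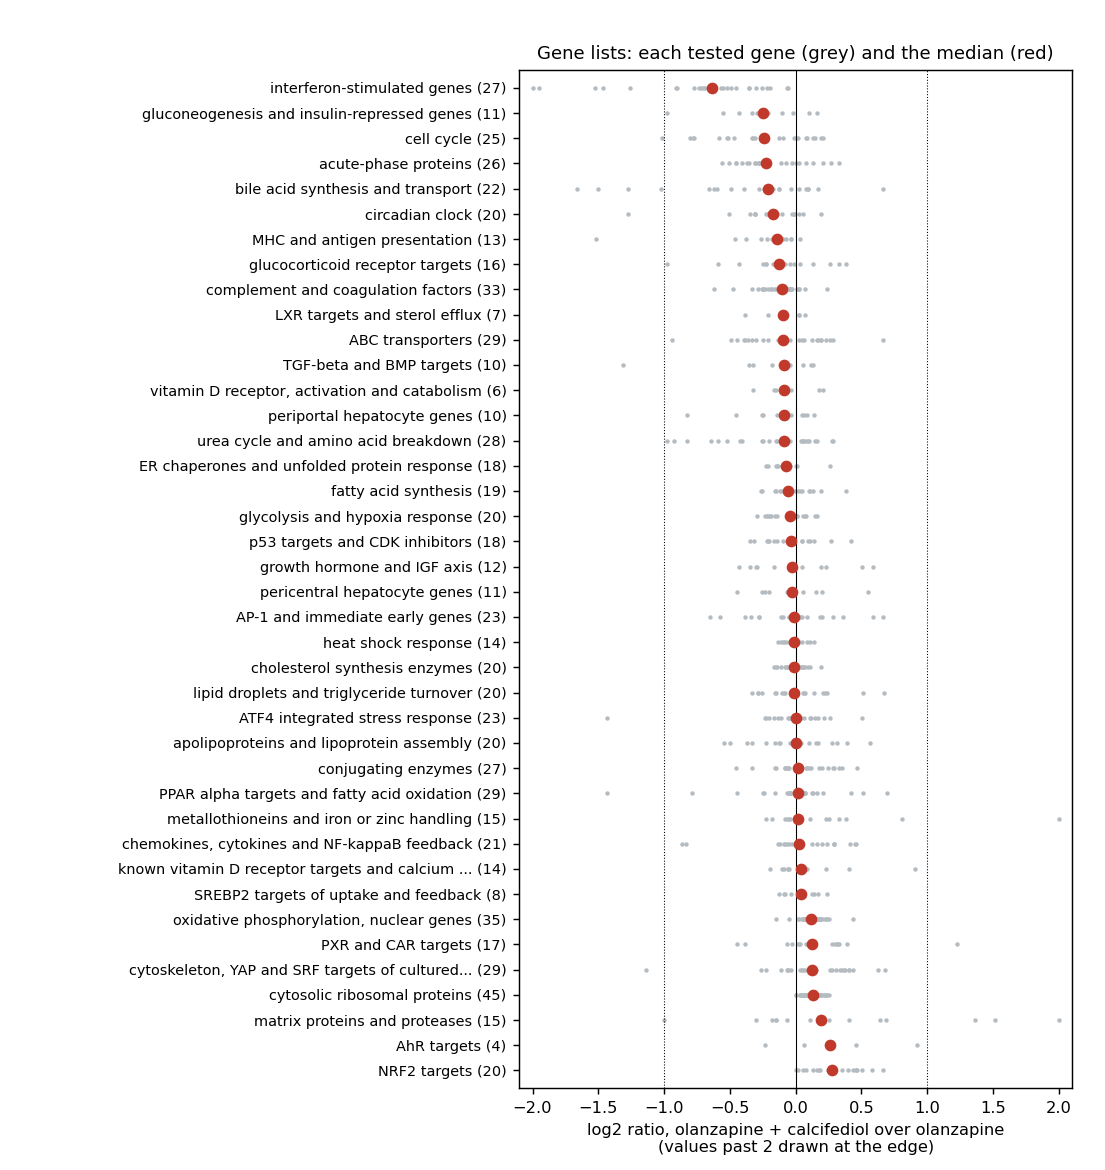
Log2 ratio of the calcifediol library over the olanzapine library for each tested gene (grey) and the median (red) of 40 gene lists, with the number of tested genes in brackets, lists ordered by median and dotted lines at 2-fold. The interferon-stimulated genes lie lowest at −0.63, and all other list medians fall between −0.24 and 0.28.

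Transcript length moved with the ratio. When the genes were put in 10 equal bins by effective length, in the shortest bin (122 to 1027 bases) the median log2 ratio of calcifediol over olanzapine was 0.14, and in the longest bin (5643 to 21630 bases) it was −0.12. Calcifediol over vehicle ran from 0.11 to −0.05 over the same bins, olanzapine over vehicle from −0.03 to 0.07, and calcitriol over olanzapine from −0.01 to 0.01. Lists of short genes stand above 0 with it: all 45 cytosolic ribosomal proteins had positive ratios with a median of 0.14, and oxidative phosphorylation genes (35 tested) had 0.12. After the median of the same length bin was subtracted, an adjustment chosen after the data were seen, these medians were 0.00 and 0.03, while the interferon list stood at −0.67, bile acid genes at −0.23 and cell cycle genes at −0.22. Its part in single genes was not tested.

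**Figure D5:**
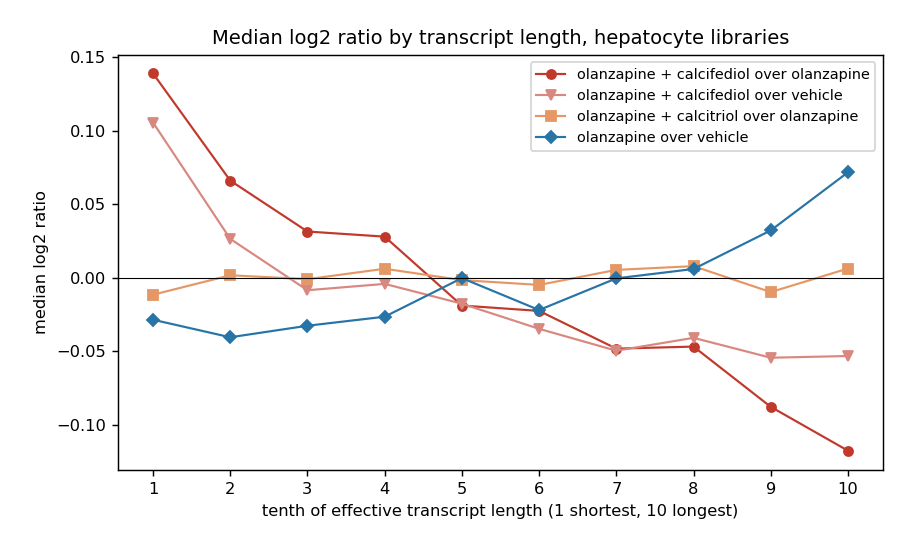
Median log2 ratio of the genes in 10 equal bins of effective transcript length, from the shortest (1) to the longest (10), for 4 pairs of hepatocyte libraries. The line of calcifediol over olanzapine runs from 0.14 to −0.12, while the line of calcitriol over olanzapine stays between −0.01 and 0.01.

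The libraries had 19178616 counts with calcifediol, 19348338 with calcitriol, 18325297 with olanzapine and 18793482 with vehicle, and all 20 hepatocyte markers passed the TPM filter, with Alb at 5.63% to 6.23% of all counts. Rplp0, the reference gene of the study's qRT-PCR, had 22316 counts with calcifediol against 20397 with olanzapine (0.06). Most markers of other cells were low, and they differed in part between the libraries. Macrophage markers other than Cd68 summed to 71 counts with calcifediol, 86 with calcitriol, 73 with olanzapine and 67 with vehicle, with Timd4 at 0 throughout. Cd68 itself was abundant in every library, with 5844, 7813, 7258 and 8198 counts in that order. With Cd68 included, the macrophage markers had a log2 ratio of −0.38 (−0.42 to −0.33). Endothelial markers summed to 349, 473, 416 and 402 in that order, and fibroblast and stellate markers other than Ecm1 to 127, 681, 114 and 114. Ecm1 had 380, 398, 327 and 376 counts. Adipocyte markers other than Fabp4 summed to 210 with calcifediol, 410 with calcitriol, 163 with olanzapine and 139 with vehicle. Fabp4 had 1228, 1162, 904 and 925 counts in the same order. Cholangiocyte markers summed to 2012, 2079, 1936 and 1996 (log2 ratio −0.01, −0.10 to 0.08). Mesothelial and lymphocyte markers summed to at most 3 in any library. Skeletal muscle markers summed to 50 with calcifediol, 90 with calcitriol, 97 with olanzapine and 68 with vehicle (log2 ratio −1.01, −1.54 to −0.51), of which the actin Acta1, itself called lower and chosen after its value was seen, held 33, 69, 75 and 53, while Myog and Myod1 were at 0 in every library. The part of these cells in Col1a2, H2-Ab1, Myl9, Cnn1 or Acta1 was not tested, and fewer cells of a type and less RNA per cell cannot be told apart in bulk cultures.

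Set beside the same contrast in the other cell types, hepatocytes had the fewest calls, 0.566% of the genes tested against 1.52% in adipocytes and 11.6% in C2C12 cells, in tables made separately. Of the 41 genes called lower in hepatocytes, 22 were tested in C2C12 cells and 8 were called lower there, where 6.29% of all genes were, among them Oasl2, Gbp3, Myl9, Cnn1, Plk1, Tk1 and Hist1h2ap. Of the 28 tested in adipocytes, 1 was called lower, the predicted gene Gm14434, where 0.771% of all genes were. Of the 21 genes called higher, 14 were tested in C2C12 cells and 1, Kitl, was called higher there (5.28% of all genes were), and 11 were tested in adipocytes and 1, the predicted gene Gm4184, was called higher there (0.746% of all genes were). Myl9 had 1171 counts with calcifediol against 4310 with olanzapine in C2C12 cells (−1.84, −1.94 to −1.75). The differences in ratio between cell types were not tested.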

How the data were processed

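Poly(A) RNA from 4 primary hepatocyte cultures was sequenced on the DNBseq platform as 1 library per treatment, and groups follow the GEO sample titles. The authors filtered the reads with SOAPnuke, aligned them with HISAT 2.0.4 and Bowtie2 2.2.5 to GRCm38.p6, and deposited expected counts and FPKM per gene from RSEM 1.2.8. The deposited expected counts were rounded to whole numbers, and the deposited FPKM was rescaled to TPM. A further 12 TPM value columns were not used. Counts per library ran from 18325297 to 19348338, so 3 counts, the limit set by a count of 0, equal 0.155 to 0.164 CPM.

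Genes that reached a TPM of 1 in some hepatocyte library were compared with a two-sided Audic-Claverie test on counts, with library totals as scale, a pseudocount of 0.5 for log2 ratios and Benjamini-Hochberg adjustment over 10963 genes. This follows the kind of test that the study used for pairs of libraries. The exact intervals and the limits cover counting error only. With 1 library per treatment there is no SD. The test was tested on simulated data.

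Named genes were called genes that reached a TPM of 5 in either library (up to 12 per direction, predicted genes left out), up to 4 members of each list with the largest ratio, every called member of a list, and 10 genes of vitamin D handling and reference use. Any other named gene was picked once its values were known, as stated beside it. The members and the 41 pathway and 9 marker lists were chosen with earlier results of these data known. Mitochondrial genes of oxidative phosphorylation, 1 of the lists, had no member tested, and some results are not reported here. Genes were matched to the annotation for 17629 of 17742 entries, after 23 symbols turned into dates by spreadsheet software were restored. Alternatives covered scaling (TMM from edgeR 4.0.16, size factors from DESeq2 1.42.0, FPKM totals, Rplp0), the pseudocount, the TPM filter, the thresholds, the reference library, edgeR's exact test with an assumed coefficient of variation, and transcript length. Analyses ran in Python 3.11.15 (scipy 1.17.1, pandas 2.3.3) and R 4.3.3.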

Additional observations from a re-analysis of the deposited data

Results flagged for a closer look

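Ypel4, a small zinc-binding protein of the Yippee family, was called in opposite directions in 2 cell types when calcifediol was added to olanzapine. In hepatocytes it had 11 counts with calcifediol, 26 with calcitriol, 30 with olanzapine and 25 with vehicle. Calcifediol over olanzapine gave a log2 ratio of −1.47 (−2.66 to −0.48), and the call was lost under FPKM totals (−0.88) and with vehicle as reference (−1.18). Its hepatocyte TPM was 0.50 with calcifediol and 0.94 with olanzapine, so it passed the filter through the calcitriol (1.19) and vehicle (1.97) libraries. In C2C12 cells it had 133, 109, 44 and 40 counts in the same order, a log2 ratio of 1.62 (1.13 to 2.16). The difference between the cell types was not tested, since each ratio rests on 1 library per side.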

How the results depend on the processing

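The count of called genes, 62 with 21 higher and 41 lower, was 106 (77 lower) without the TPM filter, 7 (3 higher, 4 lower) at a TPM of at least 10, 233 (77 higher, 156 lower) at an FC of 1.5, 28 (5 higher, 23 lower) at an FDR of 0.001, 14 (3 higher, 11 lower) with edgeR's exact test at an assumed coefficient of variation of 0.1, and 1 (0 higher, 1 lower) at 0.2. Counts stayed within 1.5 times under TMM factors (58), size factors (58), FPKM totals (69), Rplp0 (65), a pseudocount of 5 (46), vehicle as reference (65, of which 15 among the 62), olanzapine and vehicle summed (50, of which 25) and length adjustment (56, of which 52), the last chosen after the data were seen. With vehicle as reference the median of interferon-stimulated genes was −0.25, that of bile acid genes −0.051, that of ER chaperones changed sign (−0.07 against olanzapine, 0.014 against vehicle) and Zfp101 did likewise (1.08 against olanzapine, −0.059 against vehicle). Medians also moved for fatty acid synthesis (−0.058 against olanzapine, 0.058 against vehicle), apolipoproteins (0.0034, 0.081), acute-phase proteins (−0.23, −0.12) and complement and coagulation factors (−0.10, −0.0024). With olanzapine and vehicle summed the interferon median was −0.38, and as a mean the bile acid value was −0.37. The cause of these shifts was not tested. Scalings moved the median of all genes by under 0.1. No paired analysis was possible because each treatment had 1 library, and for the same reason no replicate could be left out. Depth limited genes under about 50 counts.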
